A study of Mus musculus with 6 samples.

Results

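Lymphatic endothelial genes were asked for in choroid endothelial cells (ECs), the cells that line the vessels behind the retinal pigment epithelium (RPE). The group comprised 8 genes picked by symbol as identity genes of lymphatic endothelium: Prox1, Lyve1, Pdpn, Flt4, Vegfc, Reln, Itga9 and Mmrn1. All 8 had a row among the 22026 gene symbols of the deposited files, and none was listed at 0 in any isolation. RNA had been sequenced from 129/B6 mice at postnatal day 5 (P5) and day 30 (P30), with 3 isolations per age and the RPE/choroid of 7 animals pooled in each. The animals of both ages had received a retro-orbital injection of a fluorescent VE-Cadherin antibody while alive, and cells carrying it were sorted by flow cytometry. P5 pups had received a smaller amount of antibody than P30 mice, so age and antibody amount cannot be told apart. The P30 mice were of both sexes. VE-Cadherin joins neighbouring ECs in blood and lymphatic vessels alike, so the protein by itself does not separate one from the other. Whether the injected antibody reached lymphatic ECs was not tested.

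Lymphatic vessels arise when venous ECs switch on PROX1, a homeobox transcription factor that sets and maintains lymphatic identity. The growth factor VEGF-C then acts through its receptor VEGFR3, the product of Flt4, to drive sprouting and survival of these cells. Blood capillaries with fenestrae and growing blood vessels can also carry VEGFR3, and the choroid, whose capillaries are fenestrated, is classically described as lacking typical lymphatic vessels. LYVE1 is a hyaluronan receptor found on lymphatic capillaries and also on a subset of tissue macrophages, and podoplanin, the product of Pdpn, is a membrane mucin of lymphatic ECs, many fibroblasts and some epithelia.

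Expression was given as FPKM, the fragments of a transcript scaled to its length and to the library, so that levels can be compared between genes. The authors scaled the library by its upper quartile, and differences between ages rest on that scaling. Where 3 values are given for an age they stand in the order of replicates 1, 2 and 3. The values were compared as log2(FPKM + 1) with limma, a linear model that shares the spread between isolations across genes. A gene was called where its Benjamini-Hochberg adjusted p was under 0.01 and the mean FPKM + 1 of the ages differed at least 2-fold. A gene was tested where either age averaged 5 FPKM or more, and of the 12481 that did, 735 (5.89%) were called higher at P30 and 726 (5.82%) higher at P5. When each isolation was first brought to the same mean level of 10 blood endothelial markers, these counts were 477 and 1720. That endothelial scaling shifted the median difference of all tested genes by -0.37 on the log2 scale. The depth of the isolations is unknown, so no counting error can be given.

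All 8 lymphatic genes were tested, Prox1 and Reln only through their P30 means. Of the 8, 1 (Mmrn1) was called and was higher at P5, 0 were called higher at P30, and 7 did not pass both limits. The median P30 minus P5 difference of log2(FPKM + 1) was 0.41 over the 8 genes and -0.10 over all tested genes. Prox1 and Reln entered this median only through the age at which they were higher, and over the other 6 genes it was 0.32. The ages did not overlap in 4 of the 8, with every P30 isolation higher for Flt4, Pdpn and Prox1 and every P5 isolation higher for Mmrn1. Prox1 is in this count too only through the age at which it was higher. Among all tested genes, every P30 isolation lay above every P5 isolation in 22.0% and below in 33.0%, or 55.1% in either direction. An exact two-sided permutation test of 3 isolations against 3 cannot go below p = 0.1, the value that such a separation gives, and it gave p = 0.3 for Vegfc and Reln and p = 0.4 for Lyve1 and Itga9. In such bulk samples, fewer cells of a type and less RNA per cell cannot be told apart.

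**Figure D1:**
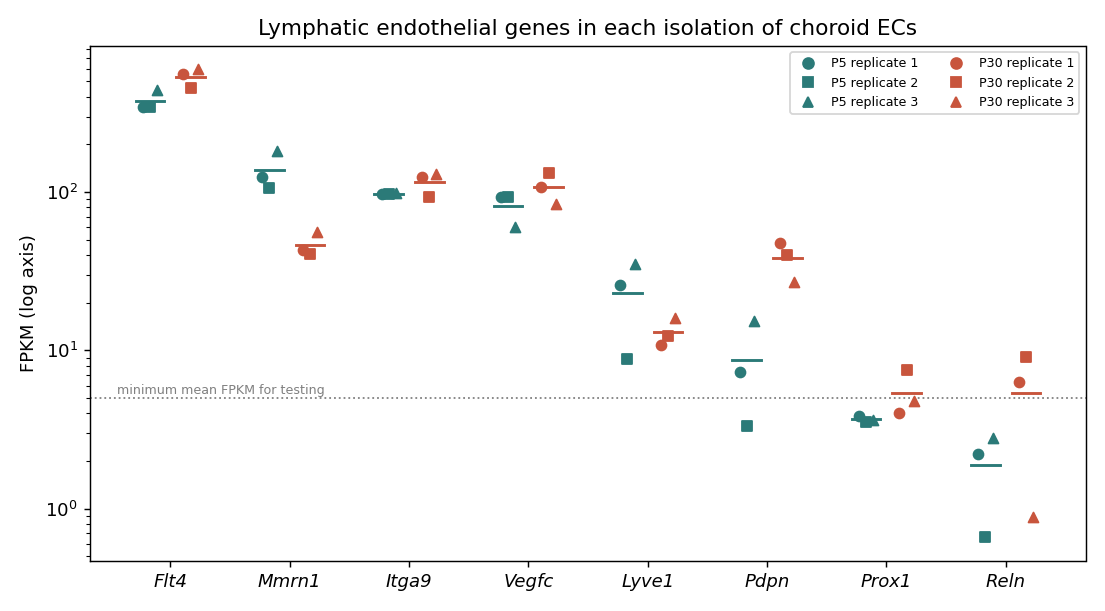
FPKM (log axis) of the 8 lymphatic endothelial genes in the 3 P5 and 3 P30 isolations, with 1 marker shape per replicate number, a horizontal bar at the mean of each age and a dotted line at the mean FPKM of 5 that a gene needed in at least 1 age to be tested. Flt4 lay between 346 and 597, Prox1 between 3.54 and 7.47, and the widest gaps between the ages are those of Mmrn1 and Pdpn.

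The 8 genes covered a wide range of levels. At P5 the order of mean FPKM was Flt4, Mmrn1, Itga9, Vegfc, Lyve1, Pdpn, Prox1 and Reln. Of these neighbours, the P5 isolations overlapped between Lyve1 and Pdpn and between Pdpn and Prox1, and not between the others. At P30 the order was Flt4, Itga9, Vegfc, Mmrn1, Pdpn, Lyve1, Prox1 and Reln, with overlap between Itga9 and Vegfc, between Mmrn1 and Pdpn and between Prox1 and Reln. The label of the group was met unevenly. The receptor gene Flt4 was at or above the 96.5th percentile of all gene symbols in every isolation. Prox1, which defines the lineage, had percentiles of 45.05 to 48.2, where 33.4% to 37.3% of symbols were listed at an FPKM of 0. For scale, Pecam1 (CD31), a gene of all ECs, had between 1243 and 1680.3 FPKM in the 6 isolations. Cdh5, the gene of the sorted protein, had between 2878 and 3069 at P5 and between 1839.8 and 1943 at P30.

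Vegfc (chromosome 8, 55162886 to 55271808 of mm9) encodes VEGF-C. It was found at 93.2, 93.2 and 60.2 FPKM at P5 and at 108, 132 and 84.7 FPKM at P30. The ages overlapped, since P30 replicate 3 lay below P5 replicates 1 and 2. The P5 mean of 82.2 ± 19.1 and the P30 mean of 108 ± 23.8 (SD, n = 3 each) differed within the spread between isolations (log2 difference 0.40, SE 0.22, adjusted p = 0.192 from limma).

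Flt4 (chromosome 11, 49422765 to 49466241) encodes VEGFR3. The P5 isolations held 347, 346 and 442 FPKM and the P30 isolations 555, 457 and 597. The ages were separate, P30 being higher, though narrowly for P30 replicate 2 against P5 replicate 3. From a P5 mean of 379 ± 55.3 to a P30 mean of 536 ± 71.6 (SD, n = 3 each), Flt4 showed a ratio of 1.42 that was below 2-fold and did not pass the p limit (log2 difference 0.50, 95% confidence interval 0.17 to 0.84, adjusted p = 0.0296 from limma). After endothelial scaling the log2 difference of Flt4 was 0.13 and that of Vegfc 0.03.

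Prox1 (chromosome 1, 191945660 to 191994559) was low at both ages. At P5 it reached 3.84, 3.54 and 3.65 FPKM, and at P30 4.0, 7.47 and 4.76. The P5 isolations lay close together, and P30 replicate 1 was only just above them. The means, 3.68 ± 0.152 for P5 and 5.41 ± 1.82 for P30 (SD, n = 3 each), did not differ beyond the spread (log2 difference 0.42, SE 0.37, adjusted p = 0.395 from limma). Without P30 replicate 2 Prox1 fell under the minimum for testing. After endothelial scaling its log2 difference was 0.05. A non-coding gene of the opposite strand overlaps Prox1 in the annotation, and the counting is not stated to use strand.

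Lyve1 (chromosome 7, 117994121 to 118006467) differed more among P5 isolations than between ages. Values of 25.8, 8.82 and 34.9 FPKM were seen at P5, against 10.75, 12.4 and 16.0 at P30. The highest P5 isolation was 3.96 times the lowest, against 1.49 times at P30, and P5 replicate 2 lay below every P30 isolation. The mean went from 23.2 ± 13.2 (SD, n = 3) to 13.04 ± 2.70 (SD, n = 3), a difference within the spread (log2 difference -0.61, SE 0.47, adjusted p = 0.328 from limma). Without P5 replicate 2 the log2 difference of Lyve1 was -1.16 and without P5 replicate 3 it was -0.23, with adjusted p = 0.0339 and 0.746 from limma.

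Pdpn (chromosome 4, 142857334 to 142889467) had the largest difference in the group. The P5 values were 7.28, 3.34 and 15.4 FPKM, and the P30 values 47.7, 40.1 and 27.1. All 3 P30 isolations exceeded the highest of P5, and the P5 values spread 4.60-fold. The P30 mean of 38.3 ± 10.4 was 4.42 times the P5 mean of 8.66 ± 6.13 (SD, n = 3 each). The adjusted p missed the limit of 0.01 by a small margin (log2 difference 2.19, 95% confidence interval 1.09 to 3.30, adjusted p = 0.0103 from limma). Pdpn was called in 3 of 15 other fits: with a pseudocount of 5, with quantile normalization and without P5 replicate 3, where the log2 difference was 2.68.

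Among the adhesion and matrix genes, Mmrn1 (chromosome 6, 60874970 to 60939372) fell with age. It encodes multimerin 1, a large secreted protein that is made by ECs and megakaryocytes and marks lymphatic ECs. It stood at 124, 106 and 182 FPKM at P5, then at 42.85, 40.7 and 55.85 at P30. The lowest P5 isolation was well above the highest P30 isolation. The mean fell from 137 ± 39.9 (SD, n = 3) to 46.5 ± 8.18 (SD, n = 3), 2.96-fold lower at P30 (log2 difference -1.52, SE 0.22, 95% confidence interval -2.03 to -1.01, adjusted p = 0.00218 from limma). Mmrn1 was called in 15 of 15 other fits, with adjusted p between 0.000975 and 0.00964 from limma and log2 differences between -1.89 and -1.30.

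Itga9 (chromosome 9, 118515808 to 118810121) encodes integrin α9, which pairs with integrin β1 to bind fibronectin, tenascin-C and osteopontin and is needed for lymphatic valves. Levels of 96.9, 97.6 and 98.0 FPKM at P5 compared with 124, 93.2 and 130.4 at P30. The P5 isolations were nearly level, while P30 replicate 2 lay below them and the other P30 isolations above. Means of 97.5 ± 0.560 (SD, n = 3) and 116 ± 19.9 (SD, n = 3) did not differ beyond that spread (log2 difference 0.23, SE 0.14, adjusted p = 0.231 from limma), and the direction turned after endothelial scaling (log2 difference -0.14).

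Reln (chromosome 5, 21390272 to 21850523) encodes reelin, a secreted glycoprotein best known from neuronal migration and also made by lymphatic ECs. It had the lowest mean at P5 and was level with Prox1 at P30, with 2.23, 0.66 and 2.80 FPKM for P5, and 6.28, 9.04 and 0.89 for P30. P30 replicate 3 lay among the P5 isolations, and the P30 values spread 10.2-fold. The mean of Reln was 5.40 ± 4.15 in P30 isolations against 1.90 ± 1.11 in P5 ones (SD, n = 3 each), which differed within the spread (log2 difference 0.92, 95% confidence interval -0.79 to 2.63, adjusted p = 0.346 from limma). Reln fell under the minimum without P30 replicate 1 or without P30 replicate 2. Small annotated transcripts and pseudogenes overlap Reln and Itga9.

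**Figure D2:**
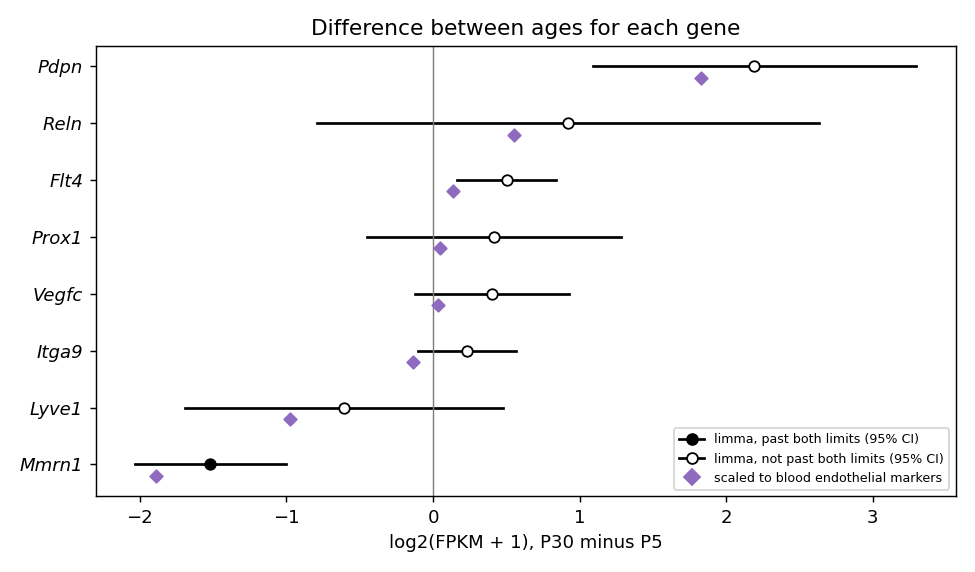
P30 minus P5 difference of log2(FPKM + 1) for the 8 genes, with circles for the limma coefficient (filled where the gene passed both limits), lines for its 95% confidence interval, and diamonds for the coefficient after endothelial scaling. Only Mmrn1 passed, at -1.52, and every diamond lies to the left of its circle, so that Itga9 crosses 0 and Prox1, Vegfc and Flt4 come within 0.14 of it.

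Several of the 8 genes shared an order of the isolations within an age. At P5, Flt4, Mmrn1, Lyve1, Pdpn and Reln were all highest in replicate 3 and lowest in replicate 2, an order shown by 13.5% of the tested genes. For Flt4, replicates 1 and 2 were nearly tied, at 347 and 346 FPKM. Prox1, lowest in replicate 2 too, and Itga9 barely differed among the P5 isolations, with 1.08-fold and 1.01-fold between highest and lowest. Vegfc ran the other way, lowest in replicate 3. At P30, Flt4, Itga9 and Mmrn1 shared the order of replicate 3, then 1, then 2, shown by 8.38% of the tested genes. Lyve1 was also highest in P30 replicate 3, whereas Pdpn, Vegfc and Reln were lowest there. Replicates have no order in time, and the genes of 1 isolation share its RNA, so these rankings are a description without a test.

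**Figure D3:**
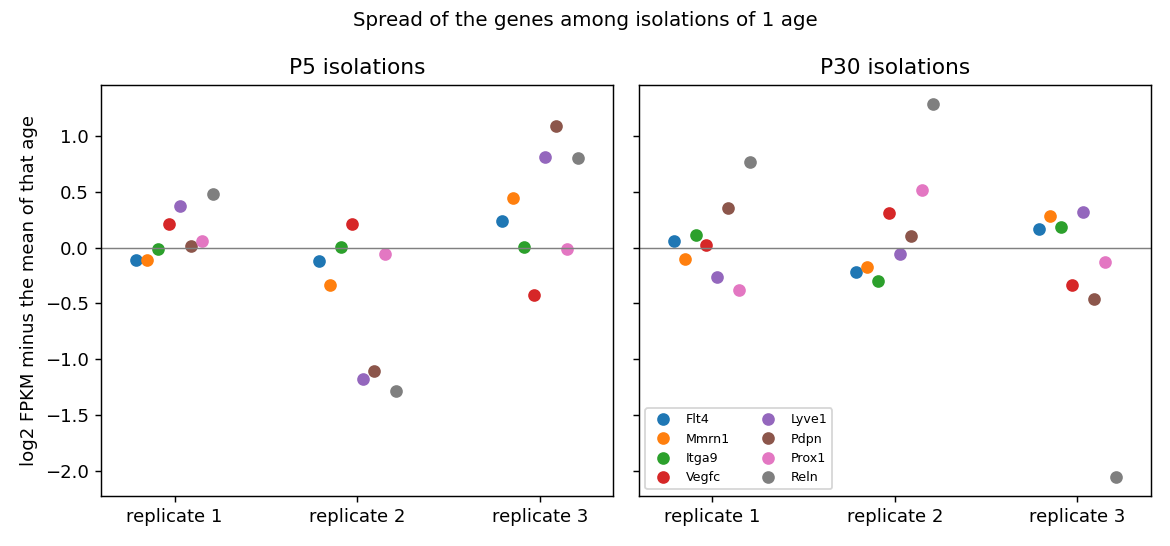
log2 FPKM of each gene minus its mean over the 3 isolations of the same age, for P5 on the left and P30 on the right, with 1 colour per gene. At P5 replicate 3, Pdpn, Lyve1, Reln, Mmrn1 and Flt4 lie above 0 and Vegfc lies below, while at P30 replicate 3 Lyve1, Mmrn1, Itga9 and Flt4 lie above 0 and Reln, Pdpn, Vegfc and Prox1 lie below.

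Markers of other cells moved with age beside these genes. The 12 macrophage markers summed to 1299.8 to 1648 FPKM at P5 but 339.9 to 1014 at P30, and 6 of them were called lower at P30. Mrc1, the mannose receptor of tissue macrophages, which often carry LYVE1 too, fell from 255 ± 15.7 (SD, n = 3) to 44.7 ± 36.7 (SD, n = 3) FPKM (log2 difference -2.88, adjusted p = 0.00905 from limma). Lyz2 and C1qa, lysozyme and a complement chain, were the highest macrophage markers at P30, at 254 ± 128 and 97.1 ± 52.9 FPKM (SD, n = 3). None of these 12 markers was at 0 throughout an age. Within P5, Lyve1 was lowest in replicate 2, where the macrophage sum was 1556, and highest in replicate 3, where it was 1299.8, the lowest P5 sum. Mrc1 alone of the 12 had the same P5 order as Lyve1, an order shown by 13.5% of the tested genes. It differed little among the isolations, at 247, 244 and 273 FPKM. Cd163, a scavenger receptor of macrophages, was also lowest in replicate 2, at 51.9, 26.97 and 49.7. The other macrophage markers were not lowest in that isolation. The part of macrophages in the Lyve1 values was not tested.

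The 6 platelet and megakaryocyte markers, set beside Mmrn1, summed to 422 to 484 FPKM at P5 but only 36.4 to 150.05 at P30. Nearly all of that sum was Pf4, which fell from 443 ± 31.6 to 68.4 ± 63.2 FPKM (SD, n = 3, log2 difference -3.17, adjusted p = 0.00945 from limma) and which macrophages can also express. The other markers of the list were far below Pf4 at P5. Gp9 was listed at 0 in every P5 isolation, Itga2b was between 2.06 and 3.22 FPKM at P5, and Gp1ba between 3.84 and 5.39. Ppbp had 8.58 ± 3.49 FPKM at P5 and 4.06 ± 3.79 at P30 (SD, n = 3, adjusted p = 0.229 from limma). Ppbp was highest in replicate 3 within P5, as Mmrn1 was, but also highest in replicate 2 within P30, where Mmrn1 was lowest. Of the 6 markers, 3 had a lower mean at P30 and 3 a higher mean. Pf4 and Mmrn1 were both highest in replicate 3 within P5, where Pf4 had 467 FPKM, and both lowest in replicate 2 within P30, where Pf4 had 15.15. Of the tested genes, 32.9% were highest in P5 replicate 3. At P30, 10.8% had the order of replicate 1, then 3, then 2, and 8.38% that of 3, then 1, then 2. The other ranks of Pf4 and Mmrn1 differed, with Pf4 lowest in replicate 1 at P5 and highest in it at P30. The part of such cells in the fall of Mmrn1 was not tested.

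The RPE and stromal marker lists had higher mean sums at P30. The means of Prox1, Pdpn, Flt4, Vegfc, Reln and Itga9 were higher too, but Prox1 and Reln were tested only through their P30 means. After endothelial scaling Itga9 was lower at P30 (log2 difference -0.14). The 7 RPE markers added up to 144, 65.45 and 72.0 FPKM at P5, and to 3796, 2109 and 495 at P30, and 5 of them were called higher at P30, the highest being Ttr and Rgr. Pdpn had the same order of P30 isolations, highest in replicate 1 and lowest in replicate 3, as did 19.2% of the tested genes, whereas at P5 the RPE sum was highest in replicate 1 and Pdpn in replicate 3. The 7 fibroblast markers gave sums of 725 to 1193 FPKM at P5 but 1782 to 4490.4 at P30, with P30 replicate 2 highest, as for Prox1, Reln and Vegfc and for 46.1% of the tested genes. At P5 the fibroblast sum was lowest in replicate 2, as for Prox1 and Reln but also Lyve1, Pdpn, Flt4 and Mmrn1, while Vegfc was highest there. Of the tested genes, 11.5% had the P5 order of replicate 1, then 3, then 2, and 13.5% that of 3, then 1, then 2. Dcn, which encodes decorin, was the only fibroblast marker called higher at P30, and Dpt was listed at 0 in every P5 isolation. Pericyte markers, 6 in all, summed to between 468 and 1709 at P5 and between 1814 and 6160 at P30, and 0 were called. The 5 smooth muscle markers summed to between 85.05 and 173 at P5 and between 302 and 1064 at P30. Of the 9 inner retinal neuron and glia markers, Gad1, Lhx1 and Onecut1, genes of amacrine and horizontal cells, were at 0 in every isolation, and the list sum of 527 to 899 FPKM at P5 and 572 to 933 at P30 was almost all Glul. The 7 photoreceptor markers summed to between 2.21 and 8.49 at P5 and 41.8 and 361 at P30, the 5 pigment cell markers to between 97.0 and 457 and between 119.9 and 1251, and the 5 Schwann cell markers to between 12.9 and 51.4 and between 60.2 and 306. The part of these cells in the values of Prox1, Pdpn, Flt4, Vegfc, Reln and Itga9 was not tested.

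**Figure D4:**
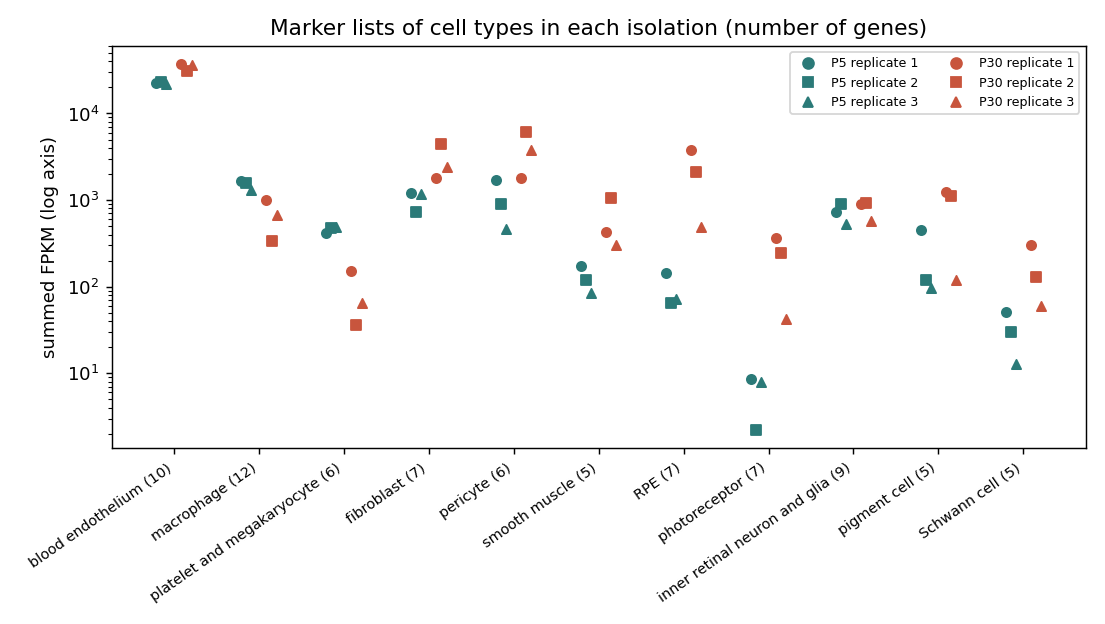
Summed FPKM (log axis) of 11 cell type marker lists in each isolation, with the number of genes of each list in brackets, 1 colour per age and 1 marker shape per replicate number. The macrophage and platelet sums of every P30 isolation lie below every P5 isolation. The other sums lie above, except those of the inner retinal and pigment cell lists, where the ages overlap. In the RPE and photoreceptor sums P30 replicate 3 is the lowest of its age.

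Blood endothelial markers far exceeded all of these, at 21779 to 23403 FPKM for the 10 genes at P5 and 30645 to 37052 at P30. Plvap, which encodes the protein of fenestral diaphragms, was the only one of them called, and it rose from 4692 ± 140.2 to 11590 ± 2515 FPKM (SD, n = 3, log2 difference 1.28, adjusted p = 0.00182 from limma).

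A wider set of 56 genes with a role in lymphatic biology was listed by function, of which 43 were tested. Of these, 5 were called higher at P30 and 2 higher at P5, or 11.6% and 4.65% against 5.89% and 5.82% of all tested genes. The lists were chosen with earlier results of these data known, so the shares describe the listed genes only. Their median log2 difference was -0.09, against -0.10 over all tested genes. Each of the 7 called genes was also called in 15 of 15 other fits.

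In the VEGF-C axis, 4 of 7 genes were tested and 1 was called. Vash1, which encodes vasohibin 1, an endothelial inhibitor of vessel growth, fell from 315 ± 11.1 to 86.5 ± 8.76 FPKM (SD, n = 3, log2 difference -1.86, SE 0.11, adjusted p = 0.000101 from limma). Kdr, the gene of VEGFR2, which also binds processed VEGF-C, had 2488 ± 99.4 FPKM at P5 and 3389 ± 485 at P30 (SD, n = 3, adjusted p = 0.0338 from limma). Nrp2, the co-receptor neuropilin 2, had 508 ± 34.1 and 428 ± 36.2 (SD, n = 3, adjusted p = 0.0934 from limma). Figf, the gene of the second VEGFR3 ligand VEGF-D, was low, at 5.37 ± 2.91 and 7.33 ± 3.37 FPKM (SD, n = 3, adjusted p = 0.559 from limma). The listed genes that take part in the cleavage of VEGF-C stayed under the minimum. They had at most 0.82 FPKM for Ccbe1, 2.63 for Adamts3 and 1.20 for Adamts14 in any isolation. Other genes of this step were not listed.

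All 11 transcription factors linked to lymphatic specification or valves were tested, and 2 were called higher at P30 and 1 higher at P5. Gata2, which is required in lymphatic valves and also in haematopoietic cells, rose from 123 ± 9.50 to 386 ± 68.5 FPKM (SD, n = 3, log2 difference 1.63, SE 0.15, adjusted p = 0.000366 from limma). Of the SoxF factors, Sox17 rose from 81.2 ± 12.1 to 223 ± 30.2 FPKM (SD, n = 3, log2 difference 1.45, adjusted p = 0.000611 from limma). Sox7 fell from 563 ± 50.1 to 242 ± 46.1 FPKM (SD, n = 3, log2 difference -1.23, adjusted p = 0.00118 from limma). Sox18, the SoxF factor that activates Prox1, was high at both ages, with 728 ± 72.1 and 789 ± 210.0 FPKM (SD, n = 3, log2 difference 0.08, adjusted p = 0.770 from limma). Nr2f2, the venous factor COUP-TFII that acts with Sox18 on Prox1, had 142 ± 31.7 and 108 ± 32.4 FPKM (SD, n = 3, adjusted p = 0.220 from limma). Both of these factors stood well above Prox1 itself in level. Hhex passed the p limit but not the fold limit (log2 difference -0.68, adjusted p = 0.00923 from limma). Foxc1, Foxc2, Nfatc1, Maf and Tbx1 were not called, with log2 differences of 0.41, 0.62, -0.41, -0.43 and 1.47. Foxc2, a valve factor, was low, at 12.4 ± 3.07 and 19.3 ± 2.13 FPKM (SD, n = 3).

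**Figure D5:**
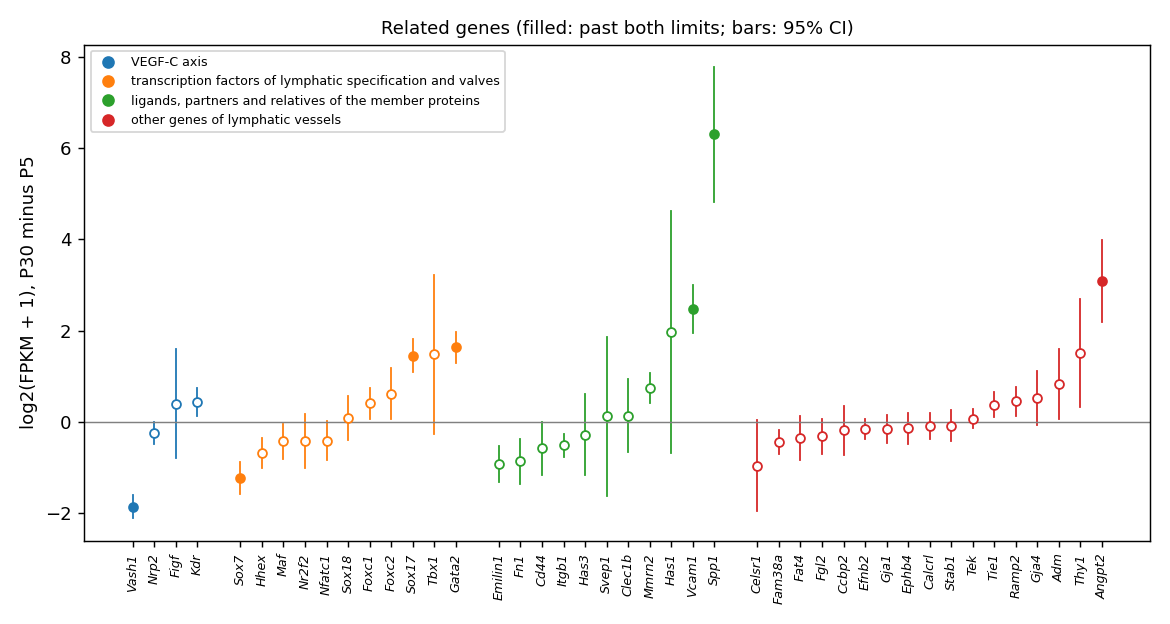
P30 minus P5 difference of log2(FPKM + 1) with 95% confidence intervals for the 43 tested genes related to lymphatic biology, in 4 lists by colour and ordered by size within each, filled where a gene passed both limits. The 7 filled points are Vash1 and Sox7 below 0 and Sox17, Gata2, Vcam1, Spp1 and Angpt2 above it.

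Of the 16 ligands, partners and relatives of the 8 proteins, 11 were tested, 2 were called higher at P30 and 0 higher at P5. Both that were called encode ligands of integrin α9β1, but Fn1, the gene of its ligand fibronectin, was lower at P30 and not called. Vcam1, a leukocyte adhesion molecule, rose from 23.4 ± 0.439 to 139 ± 43.6 FPKM (SD, n = 3, log2 difference 2.48, adjusted p = 0.000365 from limma). Spp1, the gene of osteopontin, rose from 12.7 ± 8.0 to 1227 ± 1042 FPKM (SD, n = 3, log2 difference 6.30, adjusted p = 0.000506 from limma), with 452, 2412 and 818 in P30 replicates 1, 2 and 3. That is the order of the pericyte and fibroblast sums in the P30 isolations, and of 25.9% of the tested genes. The smooth muscle sum had another order, lowest in replicate 3. The part of such cells in the Spp1 values was not tested. Itgb1, the β1 partner of integrin α9 and the highest of the list, had 1882 ± 30.4 and 1323 ± 142.9 FPKM (SD, n = 3) and passed the p limit but not the fold limit (log2 difference -0.51, adjusted p = 0.00923 from limma). The next values were chosen after they had been seen. Fn1 had 316 ± 9.75 FPKM at P5 and 178 ± 52.0 at P30 (SD, n = 3, log2 difference -0.87, adjusted p = 0.0166 from limma). Emilin1 of the same list was also lower at P30 and passed the p limit but not the fold limit (log2 difference -0.93, adjusted p = 0.00524 from limma). Mmrn2, the relative of Mmrn1 found in blood vessel ECs, had 846 ± 129.2 FPKM at P5 and 1409 ± 130.8 at P30 (SD, n = 3, log2 difference 0.74, adjusted p = 0.00612 from limma), against the fall of Mmrn1, and did not reach 2-fold. Lrp8 and Vldlr, the reelin receptors, and Dab1, their adaptor, stayed under the minimum, with at most 5.77, 7.17 and 3.32 FPKM.

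Of the 22 other genes of lymphatic vessels with a row, 17 were tested, 1 was called higher at P30 and 0 higher at P5. Angpt2, the gene of angiopoietin 2, which acts on the Tie2 receptor and is needed for lymphatic maturation, rose from 13.7 ± 6.59 to 114 ± 22.6 FPKM (SD, n = 3, log2 difference 3.08, SE 0.38, adjusted p = 0.00120 from limma). Tie1, an endothelial receptor of the same system and the highest of the list, had 1997 ± 95.4 and 2594 ± 291 FPKM (SD, n = 3, adjusted p = 0.0406 from limma). The next genes were chosen after their values were seen. Ccl21a and Ccl21b, copies of the chemokine gene that lymphatic ECs use to guide dendritic cells, were listed at no more than 0.11 and 0.03 FPKM in any isolation. These copies are nearly identical, so that the treatment of reads matching several places could lower both, and their values are uncertain. Stab2, a scavenger receptor of sinusoidal and lymphatic ECs, was between 0.64 and 3.72 FPKM, whereas its relative Stab1 was between 510 and 729. Ccbp2 (Ackr2), a chemokine scavenging receptor of lymphatic ECs, was well above these chemokine genes, at 55.05 to 57.4 FPKM at P5 and 37.4 to 71.2 at P30, and was not called (adjusted p = 0.533 from limma).

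The genes whose pattern was most like each of the 8 were sought by Pearson's r of log2(FPKM + 1) over the 6 isolations, among all tested genes. With 6 isolations in 2 age groups that share libraries, r is given as a description. For Mmrn1, 380 genes had r of at least 0.95, the closest being Rundc3b, Metap1 and Larp4b at 0.996, 0.994 and 0.994. For Lyve1 only 1 gene did, Has3, at 0.960. Has3 encodes a synthase of hyaluronan, the ligand of LYVE1, and it had 17.55, 9.04 and 25.7 FPKM at P5 beside 10.03, 13.2 and 16.6 at P30. Both genes had the same order of isolations within each age, and neither differed between ages beyond the spread. For Flt4 the closest were the transcript 2900060B14Rik, Tnfaip2 and Ednrb, at 0.991, 0.981 and 0.975, the last being the endothelin B receptor of ECs. For Pdpn they were E030003E18Rik, Capn6 and Mfap4 at 0.988, 0.986 and 0.985, and for Prox1 they were 6530418L21Rik, Arhgef6 and Filip1l, each at 0.992. Vegfc was closest to Rexo1 at 0.997, Itga9 to Pdcd2l at 0.984 and Reln to Eno1 at 0.988.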

How the data were processed

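RNA of sorted choroid ECs from 6 isolations, 3 per age, was sequenced on 1 platform. The authors used CASAVA 1.8.2 for base calling, TopHat for alignment (mm9) and CuffLinks, set to correct for GC content and scale by the upper quartile, for FPKM. They deposited 1 FPKM value per gene symbol and isolation. The annotation and the other tool versions were not given in the sources used here. Counts were not used here, so depth and counting precision are unknown.

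From the deposited FPKM, log2(FPKM + 1) was fitted with limma 3.58.1 in R 4.3.3 (lmFit, eBayes with a trend, no replicate block), the fit was checked on simulated data, and p-values were adjusted over all tested genes. The simulated data gave every gene the same spread, smaller than that of Lyve1 and Pdpn at P5 and Reln at P30. The check therefore does not cover genes with so wide a spread. Fold limits used the ratio of mean FPKM + 1. Positions are those of GENCODE vM1 on NCBIM37 (mm9), matched by symbol. Summaries were made in Python 3.11.15 (pandas 2.3.3, scipy 1.17.1). Labels give ages and replicate numbers, and p-values measure the spread between pooled isolations. Of the genes above 0 in at least 1 of a pair of isolations, at most 0.150% had the same value in both, so none was counted as a duplicate.

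The 8 genes, the related lists and the marker lists were chosen with earlier results of these data known. Named were all 8 genes, the genes over the minimum in the VEGF-C axis and transcription factor lists, up to 4 called genes in each direction and the highest gene of the other related lists, up to 2 genes with the highest P30 mean in the marker lists, and the 3 genes with the highest r for each of the 8. Other marker genes named were chosen after their values were seen. Alternatives were pseudocounts of 0.1 and 5, a minimum FPKM of 1 or none, no trend, quantile normalization, endothelial scaling, the limma coefficient as fold, a replicate block and each isolation left out. Protein sequences were not used here.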

Additional observations from a re-analysis of the deposited data

How the results depend on the processing

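Mmrn1 kept its direction and its call in 15 of 15 alternatives, and Flt4, Lyve1, Vegfc, Prox1 and Reln kept their direction and stayed uncalled in all that could be fitted. Pdpn (log2 difference 2.19) was called with a pseudocount of 5 (1.73) and with quantile normalization (2.21), which made 1 of the 8 genes called higher at P30 in place of 0, and without P5 replicate 3. The range for Pdpn with 1 isolation left out was 1.72 to 2.68, and the count of the 8 genes called higher at P30 ranged from 0 to 1. With endothelial scaling, 477 genes were called higher at P30 and 1720 higher at P5. On that scale 5 related genes were called higher at P5 in place of 2, and Itga9 reversed (-0.14). The scaling lowered P30 values relative to P5, as 8 of the 10 markers had a higher mean at P30 and 2 a lower mean. With 1 isolation left out, the genes called higher at P30 ranged from 396 to 849 and those higher at P5 from 291 to 754. The counts dropped by over 1.5 times for P5 without P5 replicate 1 (427), and for both ages without P5 replicate 2 (404 and 291) and without P5 replicate 3 (396 and 297), for which the cause was not tested. Prox1 gave no value without P30 replicate 2, nor did Reln without P30 replicate 1 or 2, as both fell under the minimum.

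With the replicate number as a block, 585 genes were called higher at P30 and 524 higher at P5, and no call among the 8 genes changed. Same-numbered isolations did not deviate together (correlations of -0.0905 to -0.0305 in 3 pairs), and 0 of 6 isolations correlated best with their own number. Depth is unknown, so the lowest genes, Prox1 and Reln, cannot be given a counting error.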
